A study of Mus musculus with 2 samples.

Results

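The genes described here are 42 imprinted mouse genes in 19 clusters, examined for loss of captured methylated DNA after deletion of Uhrf1 in chondrocytes. They were chosen by name as well-known imprinted genes and their neighbours, out of 49943 annotated gene models on 21 chromosomes. Primary chondrocytes came from the knee cartilage of C57BL/6 mice at postnatal day 3. Uhrf1 conditional knockout (cKO) cells and Control cells were both given recombinant human BMP-2, a cartilage and bone growth factor, at 100 ng/ml for 24 hours once confluent. The labels name neither the Cre driver nor the number or sex of the animals, and each genotype was 1 library. Methylated DNA was enriched with the MBD2 protein and sequenced, and the deposited table lists 35861 regions in which the cKO library had less signal than the Control library.

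An imprinted gene is expressed mainly from the allele inherited from one parent. Imprinted genes lie in clusters governed by imprinting control regions, short CpG-rich stretches that carry DNA methylation on the maternal or the paternal allele from the gamete onwards. After fertilisation this mark is kept through cell divisions by Dnmt1, which Uhrf1 guides to newly replicated DNA, so an intact control region is methylated on 1 allele of each cell. Several imprinted genes act on growth, among them Igf2, Igf2r, Grb10, Cdkn1c and Dlk1, and in the growth plate Gnas carries signals of parathyroid hormone-related peptide.

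In all, 26 of the 42 members (61.9%, 95% Wilson interval 46.81 to 75.0) had at least 1 listed region inside the annotated span or up to 5 kb outside it, and 15 of the 19 clusters did. Among all protein-coding and long noncoding genes of the table the share was 41.9%. No background share was computed for clusters, which join up to 5 members, so the count of clusters is a description only. The members are long genes, with a median of 40.2 kb against 12.8 kb, and a long gene offers more room for a region. Members under 10 kb had a region in 2 of 11 cases (18.2%), where the background was 25.1%. Members of 10 to 100 kb had one in 17 of 23 cases (73.9%, interval 53.53 to 87.45), where the background was 50.3%, although in this class Peg10 and Sgce rest in part on 1 shared region and Gnas and Nespas on the same 3. Members over 100 kb had one in 7 of 8 cases (87.5%), where the background was 82.4%. Shares in the shortest and longest classes were thus near those of other genes of that length.

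**Figure D1:**
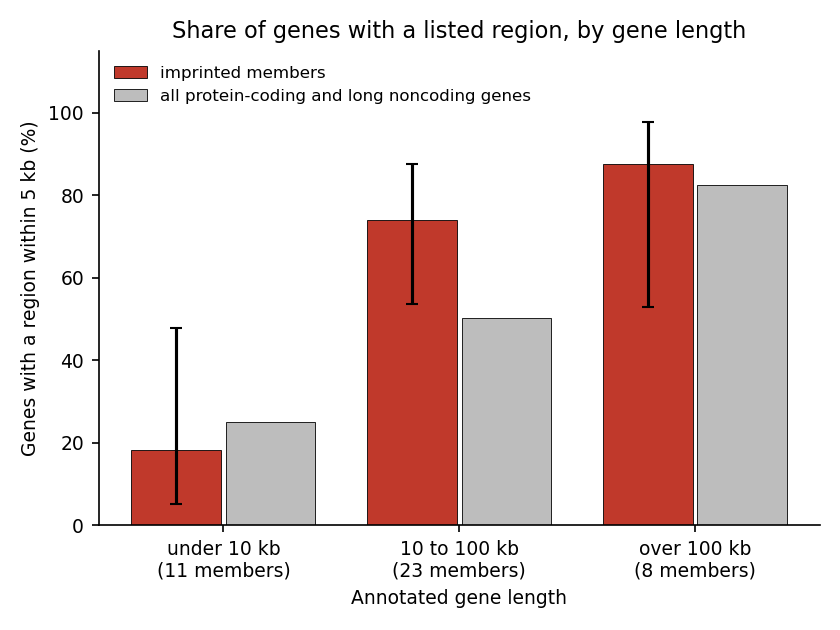
Percentage of genes with a listed region in the span widened by 5 kb, for imprinted members (red, with 95% Wilson intervals that cover counting error only) and for all protein-coding and long noncoding genes (grey), by annotated length. The members stand at 18.2%, 73.9% and 87.5%, against 25.1%, 50.3% and 82.4% for all genes.

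The 73 regions at the members held 10118 Control tags, or 0.103% of the Control tags kept. The tag count, a whole number of unscaled Control reads, is the depth behind each region. No cKO tag count per region was used here, so the authors' fold is the measure of the difference. It runs as Control over cKO, and a larger fold means less cKO signal relative to Control. Folds, FDR values and scores are those of the authors' deposited table throughout. Member regions had a median of 129 Control tags (range 15 to 450), where all listed regions had 103. Their median fold was 9.34 (95% interval of the median 8.43 to 11.47, range 3.81 to 26.37), where all regions had 12.18 (12.09 to 12.26). Folds of 20 or more were found in 5 of the 73 (6.85%, interval 2.96 to 15.05) and in 21.5% of all regions. The interval of the members' tag median (94 to 158) included the 103 of all regions, whereas that of their fold median lay below 12.18. Tag count and CpG content were not matched in this comparison. The authors' false discovery rate (FDR) was at most 5% for 44 of the 73 (60.3%), where 56.9% of all regions reached it, and was 100%, its upper limit, for 11 (15.1%), where the background was 16.2%. The shares by FDR were close to those of the whole list.

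**Figure D2:**
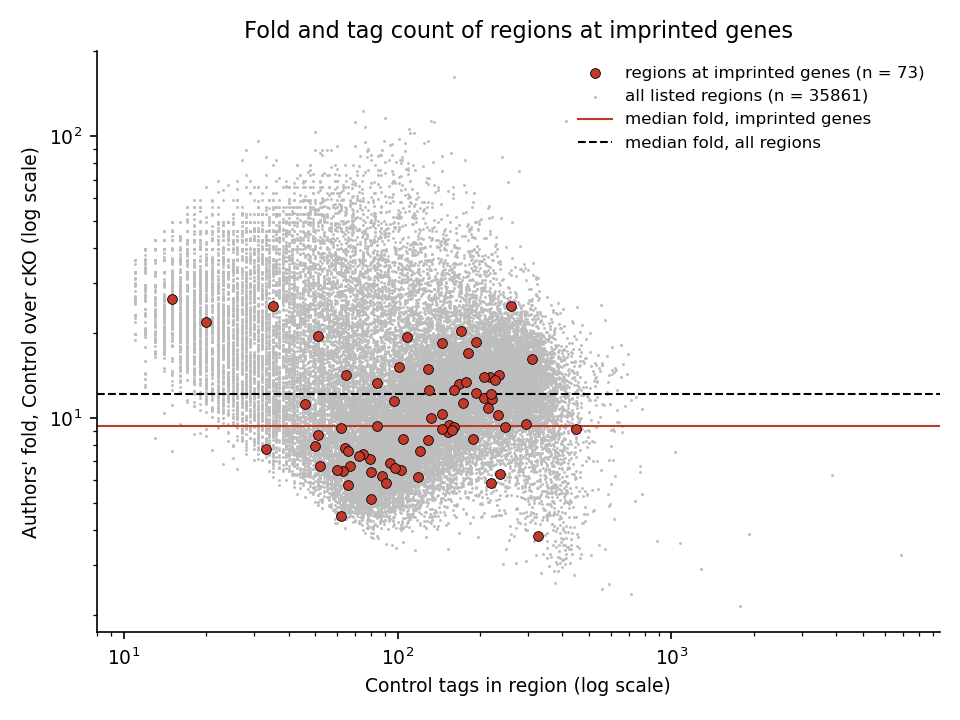
Fold in the authors' deposited table, Control over cKO, against Control tags for the 73 regions at imprinted genes (red) and all 35861 listed regions (grey), both axes on log scales. The red line marks the median of the member regions, 9.34, and the dashed line that of all regions, 12.18.

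The clusters differed in how many regions they carried. The Peg10 cluster held 15, the Peg13 cluster 11, Dlk1-Meg3 7, Slc38a4 6, Inpp5f 5 and Impact 4, and 9 other clusters held 2 or 3. H19/Igf2, Nap1l5, Nnat and Mcts2 held none. Per length of widened gene span, Slc38a4 had 8.43 regions per 100 kb (95% Poisson interval 3.09 to 18.4), Impact 8.29 (2.26 to 21.2) and Dlk1-Meg3 7.43 (2.98 to 15.3), whereas the Snrpn cluster had 0.503 (0.104 to 1.47) and the Kcnq1 cluster 0.818 (0.169 to 2.39). All widened member spans together had 2.09 per 100 kb, and the widened spans of all protein-coding and long noncoding genes had 1.81. The intervals of the 4 clusters with no region reach at least 9.53 per 100 kb, so for such short spans an absence says little.

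**Figure D3:**
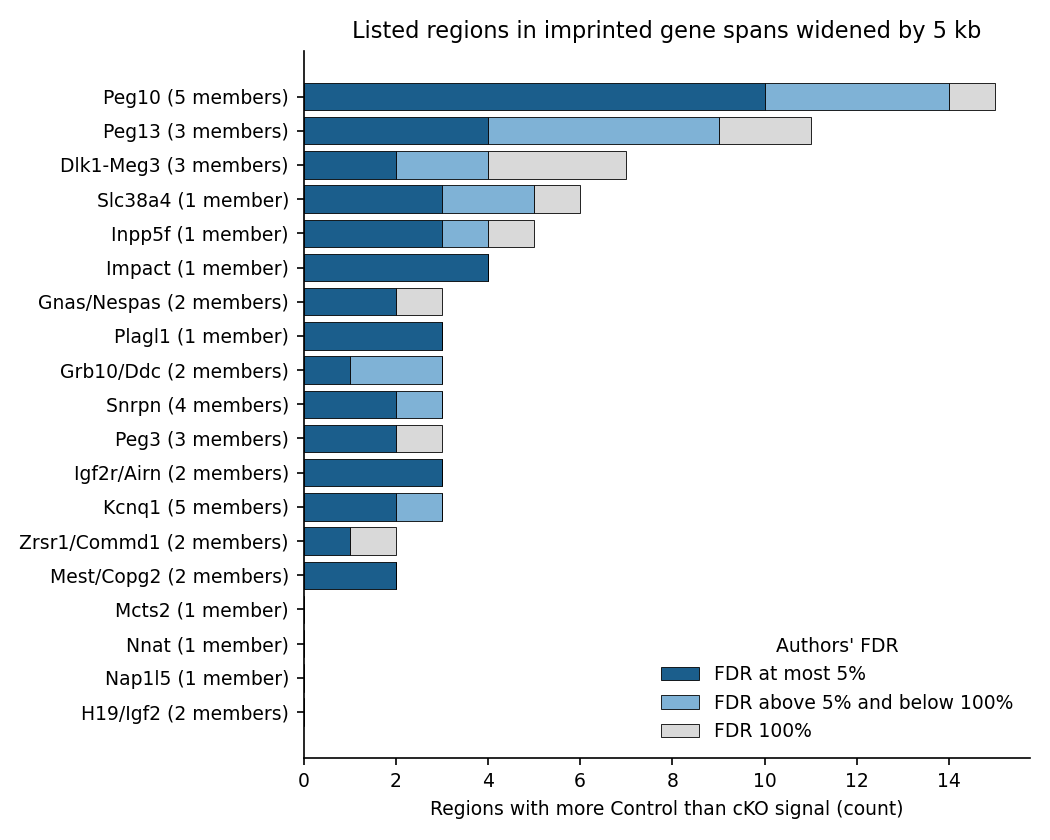
Number of listed regions, with less cKO than Control signal, in the member spans of each of the 19 clusters widened by 5 kb, shared regions counted once, with the authors' FDR in colour. The Peg10 cluster has 15 regions and the Peg13 cluster 11, while 4 clusters have none.

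Each region was then placed relative to the control region of its cluster. For 15 control regions that carry maternal methylation the landmark was the transcription start known to lie in them, or both gene ends where no start was listed, and a region counted when it came within 1 kb. The H19 control region, methylated on the paternal allele, was taken as the 5 kb upstream of H19, and the paternally methylated control region of Dlk1-Meg3 as the interval between these genes. Of the 15 maternal landmarks 4 had a region (26.7%, Wilson interval 10.9 to 51.95): Peg10/Sgce, Snrpn, Plagl1 and Peg13. For 2 of these 4, Peg10/Sgce and Plagl1, the FDR was at most 5%. Of the 11 landmarks that are listed starts, 2 had a region, where 4.02% of all 32851 listed starts had one and 4.14% of listed starts with at least 10 CpG did. Of these 2, Snrpn has 4 listed starts, and the one used was chosen after the regions had been seen. The 2 of 11 therefore cannot be read as a result against these background shares. A landmark taken as both ends of 1 or 2 genes has more chances than a single start, so the count of 4 cannot be read against them either.

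The sequences below are 250 bases before to 50 bases after 6 listed starts, from RefSeq on GRCm38.p6, 5′ to 3′, with every CpG in capitals, since MBD2 binds methylated CpG. For Slc38a4 the start shown is not the landmark, which is its first start and had its nearest region 2034 bp away. The other 5 are landmark starts. The sequences are shown to set starts with a region beside control region starts without one: the first 3 have a region over or near them, and the last 3 had their nearest region 31.0 to 132 kb away.
Snrpn proximal start, chr7:60005150-60005449, minus strand: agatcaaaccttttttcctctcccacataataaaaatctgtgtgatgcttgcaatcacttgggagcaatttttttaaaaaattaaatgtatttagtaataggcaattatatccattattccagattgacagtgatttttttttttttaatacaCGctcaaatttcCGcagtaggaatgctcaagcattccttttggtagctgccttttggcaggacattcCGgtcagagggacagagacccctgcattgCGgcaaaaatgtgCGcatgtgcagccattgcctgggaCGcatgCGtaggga
Plagl1 start, chr10:13090582-13090881, plus strand: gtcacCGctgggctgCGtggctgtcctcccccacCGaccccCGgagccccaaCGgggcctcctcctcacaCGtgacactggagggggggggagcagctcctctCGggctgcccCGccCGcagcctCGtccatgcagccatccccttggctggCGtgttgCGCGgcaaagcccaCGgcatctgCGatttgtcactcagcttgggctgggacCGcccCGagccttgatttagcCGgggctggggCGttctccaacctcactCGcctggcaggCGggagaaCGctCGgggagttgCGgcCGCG
Slc38a4 most internal start, chr15:97020310-97020609, minus strand: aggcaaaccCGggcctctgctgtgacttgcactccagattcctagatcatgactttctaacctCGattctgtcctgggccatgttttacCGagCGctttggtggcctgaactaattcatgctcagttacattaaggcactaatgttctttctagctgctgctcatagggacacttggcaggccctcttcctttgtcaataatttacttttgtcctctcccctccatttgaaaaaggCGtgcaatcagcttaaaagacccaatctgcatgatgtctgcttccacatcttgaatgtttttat
Peg3 start, chr7:6730370-6730669, minus strand: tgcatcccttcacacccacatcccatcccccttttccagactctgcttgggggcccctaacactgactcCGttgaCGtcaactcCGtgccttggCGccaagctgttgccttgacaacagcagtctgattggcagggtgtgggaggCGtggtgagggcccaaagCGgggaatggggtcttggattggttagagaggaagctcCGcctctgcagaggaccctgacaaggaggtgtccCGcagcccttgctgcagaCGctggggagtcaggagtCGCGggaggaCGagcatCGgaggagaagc
Kcnq1ot1 start, chr7:143296498-143296797, minus strand: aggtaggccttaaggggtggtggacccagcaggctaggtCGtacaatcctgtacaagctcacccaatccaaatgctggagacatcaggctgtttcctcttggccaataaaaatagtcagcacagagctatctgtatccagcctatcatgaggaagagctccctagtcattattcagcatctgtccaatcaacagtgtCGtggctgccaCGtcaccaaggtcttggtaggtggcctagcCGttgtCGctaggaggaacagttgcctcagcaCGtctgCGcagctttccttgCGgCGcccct
Airn start, chr17:12741061-12741360, plus strand: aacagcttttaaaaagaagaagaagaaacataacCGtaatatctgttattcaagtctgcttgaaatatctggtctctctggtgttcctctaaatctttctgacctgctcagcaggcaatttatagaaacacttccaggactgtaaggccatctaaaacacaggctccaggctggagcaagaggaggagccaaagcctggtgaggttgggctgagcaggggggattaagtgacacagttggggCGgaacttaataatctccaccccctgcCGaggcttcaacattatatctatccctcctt
CpG counts in these windows were 7 at Snrpn, 26 at Plagl1, 5 at Slc38a4, 13 at Peg3, 9 at Kcnq1ot1 and 3 at Airn, where the median over all listed starts was 7. Plagl1, with a region near it, and Peg3, without one, both lie above that median. The Snrpn region covers 165 bases of its window with 1 CpG, and the Slc38a4 region covers 260 bases with 4 CpG. A CpG was present in 94.6% of all such windows. Control regions reach beyond these windows, and a count of CpG here is a description of the window alone.

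Regions at maternal landmarks are described first. Sgce, which encodes epsilon-sarcoglycan, and Peg10, a retrotransposon-derived gene of the placenta, face each other head to head across a shared control region. The region at chromosome 6, 4746353 to 4746843 (mm10), lay inside Sgce, 361 bp from its facing end and 463 bp from that of Peg10. It had 158 Control tags (95% Poisson interval 134.3 to 184.6), a fold of 9.06 and an FDR of 0.03%. Plagl1 encodes a zinc finger transcription factor that restrains proliferation. Its nearest region, at chromosome 10, 13089793 to 13090330, ended 502 bp before the start and had 189 tags (163.0 to 218.0), a fold of 8.43 and an FDR listed as 0%. At both loci the fold was below the median of all regions.

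Snrpn encodes a splicing protein, and its proximal start lies in the control region of the Prader-Willi and Angelman domain. The region at chromosome 7, 60005285 to 60005668, lay 86 bp upstream of that start with 66 tags (51.0 to 84.0), a fold of 7.63 and an FDR of 51.39%. Peg13 is a noncoding RNA gene within Trappc9. A region at chromosome 15, 72810786 to 72811372, lay 462 bp outside its higher end with 119 tags (98.6 to 142.4), a fold of 6.18 and an FDR of 51.06%. At FDR values of this size, swapping the libraries gave many regions of that strength or better, so neither region stands clear of the opposite direction.

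At 5 further maternal landmarks the nearest region lay 1394 to 7984 bp away, outside the 1 kb limit. The extent of each control region was not available, so a region beyond 1 kb of a landmark can still lie in the control region. Mest, a hydrolase family gene expressed in mesoderm, had 1 region at chromosome 6, 30735962 to 30736512, inside the gene and 1541 bp before its proximal start, with 220 tags, a fold of 5.87 and an FDR of 0.15%. Nespas, an antisense transcript of the Gnas locus listed as Gnasas1, had a region 1441 bp beyond its higher end at chromosome 2, 174296877 to 174297481, within Gnas, with 294 tags, a fold of 9.49 and an FDR listed as 0%. This is the end from which an antisense transcript of Gnas begins. Impact, a translation regulator, had a region 1394 bp inside its higher end and another 3239 bp inside its lower end. A further region inside it, 17.9 kb from its lower end, had 222 tags, a fold of 11.68 and an FDR listed as 0%. Impact had no listed start, and neither gene end need lie at its control region. The regions of Impact were therefore not placed relative to that control region, and any of them can lie in it. Slc38a4, an amino acid transporter gene, had one 2034 bp upstream of its first start, with 64 tags, a fold of 7.79 and an FDR of 67.68%. Zrsr1, a retrogene for a splicing factor, had its nearest region 7984 bp from the start. Of all 15, 8 had a region within 5 kb of the landmark. No background share was computed at 5 kb, and landmarks taken as gene ends have more chances, so this count is a description only.

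The other 6 maternal landmarks lay far from any region. The nearest region was 12.8 kb from Mcts2, 31.0 kb from the Airn start, 37.4 kb from Nnat, 39.5 kb from Nap1l5, 70.7 kb from the Kcnq1ot1 start and 132 kb from the Peg3 start. Airn and Kcnq1ot1 are paternally expressed noncoding RNAs that silence neighbouring genes. The Peg3 start sat in a stretch of 276 kb with no region (6598436 to 6874296 of chromosome 7) that also took in all of Zim1, a length that 5.83% of the gaps between neighbouring regions reached. The Airn start sat in one of 175 kb (10.8% of gaps) and the Kcnq1ot1 start in one of 199 kb (9.29%). Gaps of at least the length around Peg3 hold 40.2% of all sequence between regions and those of at least the 199 kb around Kcnq1ot1 51.2%, so a position between regions often falls in such a stretch.

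**Figure D4:**
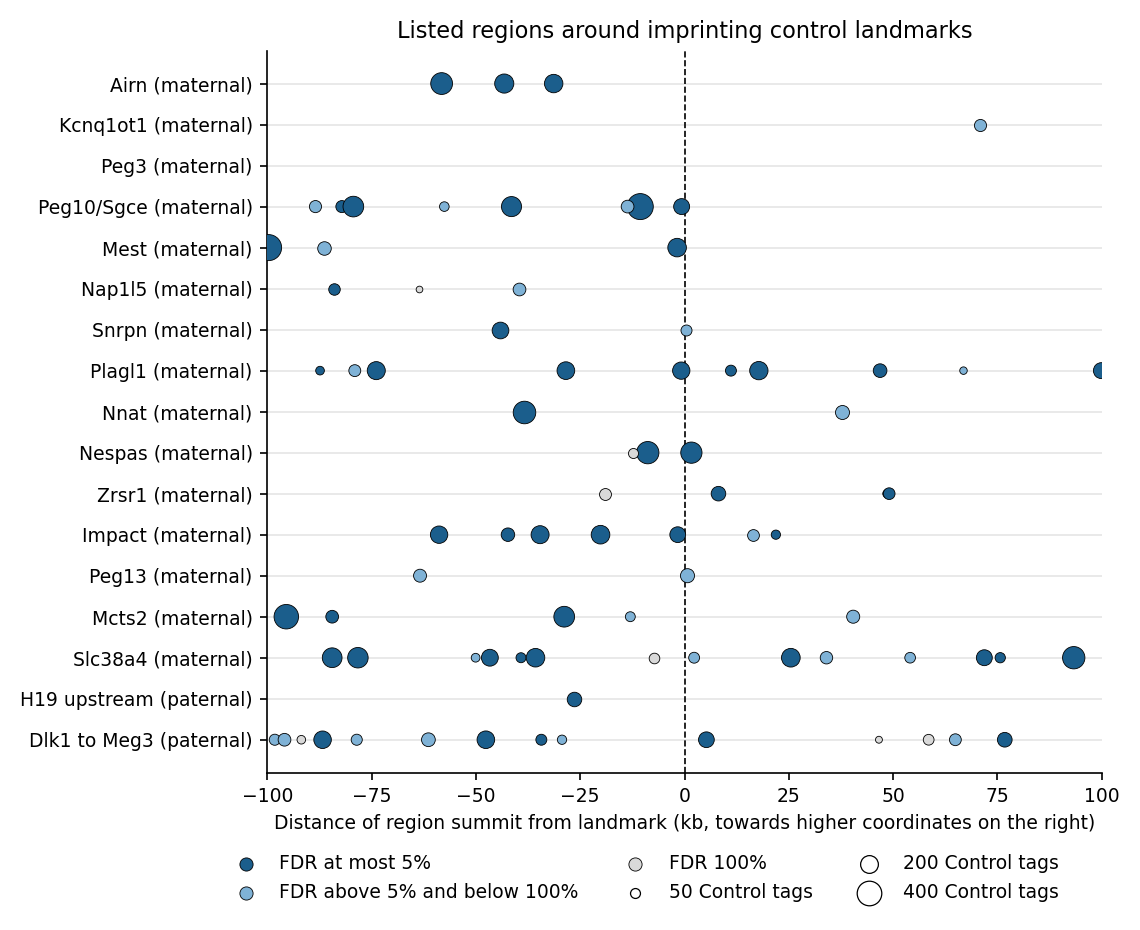
Position of each listed region's summit relative to 17 imprinting control landmarks (kb, 100 kb each way), with circle area by Control tags and colour by the authors' FDR. Where no start was listed, the gene end nearest to a region was taken as 0. For Impact this is its higher end, which need not be the end at its control region. At maternal landmarks, regions counted as within 1 kb are those at Peg10/Sgce, Snrpn, Plagl1 and Peg13. Those at Impact, Nespas, Mest and Slc38a4 also lie close to the dashed line, and none is drawn for Peg3.

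Of the paternally methylated control regions, that of H19 had no region. H19 is a maternally expressed noncoding RNA and Igf2 a paternally expressed growth factor, and both lay in a stretch of 205 kb without regions (142551812 to 142756785 of chromosome 7), a length that 8.97% of gaps reached, with 50.3% of all sequence between regions in gaps that long. The nearest region to H19 was 23.7 kb away and the nearest to Igf2 90.0 kb away. Between Dlk1, a membrane protein related to Notch ligands, and Meg3, a maternally expressed noncoding RNA, 4 regions lay in the 77.7 kb interval. They stood 29.2, 34.1, 47.3 and 61.1 kb before the Meg3 start, had 42, 65, 196 and 113 tags, and had folds of 14.61, 38.41, 12.61 and 8.80. An FDR of at most 5% was listed for the regions of 65 and 196 tags. The control region is known to lie in the part of the interval nearer to Meg3, and the last 29.2 kb before Meg3 held no region. Counted as an interval, Dlk1-Meg3 brought the landmarks with a region to 5 of 17. This interval is far wider than the windows of the other landmarks, and the whole assembly had 13.3 regions per Mb. A region somewhere in it is therefore not comparable with a region at another landmark.

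Within the Dlk1-Meg3 cluster itself 7 regions were listed, with 15 to 194 tags and folds of 4.48 to 26.37. The best covered lay inside Dlk1 at chromosome 12, 109454015 to 109454550, 1192 bp after its start, with 194 tags (167.7 to 223.3), a fold of 12.27 and an FDR listed as 0%. Dlk1 had a further region 748 bp from its higher end with 67 tags, a fold of 6.76 and an FDR of 62.98%, and another outside the gene at an FDR of 100%. Meg3 had 1 region, at 109545796 to 109546455, 398 bp after its second listed start and 4800 bp after the first, with 153 tags, a fold of 8.87 and an FDR of 0.74%. Rtl1, a retrotransposon-derived placental gene, had 3 regions, none at an FDR of at most 5%. Its highest fold, 26.37, rested on 15 tags (8.4 to 24.7) at an FDR of 100%.

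The growth regulators Igf2r and Grb10 carried regions, those of Igf2r away from the Airn start. Igf2r, which clears insulin-like growth factor 2 and is expressed from the maternal allele, held 3 regions of chromosome 17, all in the part of the gene away from its start. The one at 12682799 to 12683449, 393 bp from the end of the gene, had 310 tags (276.4 to 346.5) and a fold of 16.16, and the others had 235 and 217 tags and folds of 14.16 and 13.95. All 3 had an FDR listed as 0% and lay 31.0 to 57.9 kb from the Airn start. Grb10, an adaptor that dampens insulin and insulin-like growth factor signalling, had 1 region, 2313 bp inside its lower end on chromosome 11 (11932812 to 11933444), with 145 tags, a fold of 18.35 and an FDR listed as 0%. The listed Grb10 starts were 63538 and 72987 bp from the nearest region. The control region of Grb10 is known to be an internal promoter. No landmark was set for it, so the distance of the Grb10 region from it was not measured. The neighbouring Ddc, the dopa decarboxylase gene, held 2 regions of 129 and 103 tags with folds of 8.31 and 6.54 and FDR values of 8.26% and 8.95%.

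Cdkn1c, a cyclin-dependent kinase inhibitor needed for chondrocyte maturation, had no region, and the nearest was 19.2 kb away. For the placental growth regulators Phlda2 and Ascl2 of the same cluster the nearest lay 20.9 and 198 kb away, and Kcnq1ot1 held none. The 3 regions of the cluster lay inside Kcnq1, a potassium channel gene of 320 kb. The one at chromosome 7, 143167407 to 143167873, had 167 tags, a fold of 13.15 and an FDR listed as 0%, and that at 143402571 to 143403042 had 130 tags, a fold of 12.51 and an FDR of 0.25%. The third had 84 tags, a fold of 9.34 and an FDR of 34.95%. They stood 70.7 to 129 kb from the Kcnq1ot1 start.

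The Gnas locus had 3 regions, all shared by Gnas, which encodes the stimulatory G protein alpha subunit, and Nespas. Beside the one at 174296877 described above, a region at 174286229 to 174286865 had 326 tags (291.6 to 363.4), the most at this locus, and a fold of 3.81, the lowest of all 73 member regions, with an FDR of 2.92%. It lay 1909 bp after the first Gnas start. The third, 1123 bp before that start, had 52 tags, a fold of 6.73 and an FDR of 100%. The other 3 listed Gnas starts, at 174327749 to 174330006, were at least 30268 bp from a region.

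The Peg10 cluster held the widest range of tag counts, 20 to 450. Beyond the control region, Sgce held 4 more regions, and that at chromosome 6, 4705333 to 4705899, had 260 tags (229.4 to 293.6) and a fold of 24.89, with an FDR listed as 0%. Among member regions at an FDR of at most 5% this was the highest fold. Sgce also held the region with the most tags of all members, 450 (409.4 to 493.6) at 4736203 to 4737184 with a fold of 9.10. Ppp1r9a, the neurabin gene, had 8 regions, of which 5 had an FDR of at most 5%, and 1 of them lay 91 bp inside the gene end (161 tags, fold 12.54, FDR listed as 0%). The highest fold in Ppp1r9a, 21.95, rested on 20 tags at an FDR of 100%. Calcr, the calcitonin receptor gene, had 1 region (207 tags, fold 13.99, FDR listed as 0%), and Asb4, an ankyrin repeat and SOCS box gene, had 1 (97 tags, fold 11.47, FDR 4.68%).

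In the Peg3 cluster only Usp29, a ubiquitin-specific protease family gene of 237 kb, carried regions. The one with most tags, at chromosome 7, 6916557 to 6917138, had 232 tags, a fold of 10.22 and an FDR listed as 0%, the next had 101 tags, a fold of 15.14 and an FDR of 0.38%, and the third had 63 tags, a fold of 6.46 and an FDR of 100%. They stood 144 to 212 kb from the Peg3 start, and the zinc finger genes Peg3 and Zim1 had none.

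The Snrpn cluster was sparse. Besides the region at the proximal start, Snrpn held 1 at chromosome 7, 60163916 to 60164432, with 237 tags, a fold of 6.32 and an FDR of 0.03%, and 1 at 60273465 to 60273928 with 132 tags, a fold of 9.99 and an FDR of 0.23%. Ube3a, a ubiquitin ligase gene, and Ndn and Magel2, genes of the MAGE family, had none, and the nearest region to any of them lay 56.7 kb from Ndn. Over the 3160 kb from Ube3a to Magel2 there were 15 regions, or 4.74 per Mb, where the whole assembly had 13.3 per Mb.

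Trappc9, a trafficking complex gene of 472 kb, had 11 regions in its widened span, the most of any member, of which 4 had an FDR of at most 5%. The largest fold, 20.36, came from a region at chromosome 15, 72706581 to 72707098, with 171 tags (146.3 to 198.6), and the most tags, 247, from one at 72940115 to 72940696 with a fold of 9.26. Both had an FDR listed as 0%. Kcnk9, a potassium channel gene beside it, lay in a stretch of 1790 kb without any region. Gaps of at least this length are 0.0446% of gaps by number and hold 1.28% of all sequence between regions. This stretch ended inside Trappc9, 102 kb from Kcnk9.

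Inpp5f, an inositol phosphatase gene, had 5 regions. One lay 865 bp before the gene (chromosome 7, 128609684 to 128610316, 160 tags, fold 9.30, FDR 0.67%). Another 3 lay inside it, 7195 to 12614 bp from its higher end: 128683470 to 128683822 had 50 tags, a fold of 7.97 and an FDR of 100%, 128684186 to 128684685 had 84 tags, a fold of 13.25 and an FDR of 1.03%, and 128688890 to 128689241 had 80 tags, a fold of 6.44 and an FDR of 75.72%. The control region of Inpp5f is known to be an internal promoter in the later part of the gene, and no listed start marks it. The fifth, 2858 bp after the gene, had 181 tags, a fold of 17.01 and an FDR listed as 0%.

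Slc38a4 had 6 regions with folds of 6.53 to 24.85. The one at chromosome 15, 97019982 to 97020569, overlapped the most internal listed start, whose sequence is shown above, and had 220 tags (191.9 to 251.1), a fold of 12.10 and an FDR listed as 0%. A region of 178 tags, at 97009112 to 97009615, had a fold of 13.36 and an FDR listed as 0%, and the highest fold, 24.85, came from 35 tags at an FDR of 12.95%. Impact had 4 regions, each with an FDR of at most 0.62%. Its largest fold, 19.42, belonged to a region of 108 tags 3813 bp below the gene (chromosome 18, 12950372 to 12950877). Those inside the gene had 206, 222 and 154 tags and folds of 11.77, 11.68 and 9.45.

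Plagl1 had, beside the region at its start, 1 of 65 tags (fold 14.17, FDR 2.27%) and 1 of 214 tags (fold 10.82, FDR listed as 0%) 10.8 and 17.5 kb into the gene. Copg2, a coatomer subunit gene overlapping Mest, had 1 region 3223 bp outside it, at chromosome 6, 30900038 to 30900544, with 173 tags, a fold of 11.24 and an FDR listed as 0%. Zrsr1 lies inside Commd1, a regulator of copper handling, and they shared a region at chromosome 11, 22979989 to 22980505, with 129 tags, a fold of 14.91 and an FDR of 0.02%. Commd1 held 1 more, with 80 tags, a fold of 5.17 and an FDR of 100%. The single-gene loci Nap1l5, a nucleosome assembly protein gene, Nnat, the neuronatin gene, and Mcts2, a retrogene inside H13, had none, and their nearest regions were 37.6, 35.0 and 12.8 kb away.

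Other imprinted genes outside the 42 came from a list of 39, chosen with earlier results of these data known, of which 38 matched the gene table. They were marked by the same rule in 18 cases (47.4%, Wilson interval 32.48 to 62.74), near the 41.9% of all genes. Of the 41 regions at these genes, 4 also lay in member spans. A region came within 1 kb of a gene end in 4 of the 38 (10.5%, Wilson interval 4.17 to 24.13), near the 9.72% of all protein-coding and long noncoding genes. Rasgrf1, a guanine nucleotide exchange factor gene, had one over its higher end with 47 tags, a fold of 45.26 and an FDR of 0.16%. Chrac1, a chromatin accessibility subunit gene beside Trappc9, had one 220 bp away with 309 tags, a fold of 16.85 and an FDR listed as 0%. Peg12, a gene of the Snrpn domain, had one over its end with 197 tags, a fold of 5.29 and an FDR of 4.01%, and Zdbf2, a zinc finger gene, had one 473 bp away with 48 tags, a fold of 7.30 and an FDR of 100%.

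With 1 library per genotype no value has a replicate check, and no test between the genotypes was run. Duplicate removal kept 76.1% of the cKO tags (15039206) and 44.8% of the Control tags (9782276), and its part in these regions was not tested. The list analysed here holds only regions with less cKO signal, so a locus without a region can be one where the libraries were alike, where cKO signal was higher, or where little methylated DNA was captured in Control, and these cannot be told apart here.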

How the data were processed

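MBD-seq regions were called by the authors with MACS 1.4.2, per the file headers, with Control as the enriched library and Uhrf1 cKO as its background, a p limit of 1e-10, at most 1 tag per position, a tag size of 55 bp and a fragment shift d of 58 bp, against DNA sheared to about 300 bp per the labels' protocols. Per the submitters' processing notes the build was mm10. The aligner is not given in the sources used here. In the deposited table the tag count is the unscaled count of Control tags, the score is the caller's p as minus 10 log10 units, the fold ratio is Control over the local cKO background, and the FDR is a percent from swapping the libraries, limited to 100. These values describe regions within the list only.

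Regions overlapping a member's RefSeq span (GRCm38.p6, the assembly of mm10) widened by 5 kb by any base were taken, each counted once per cluster. Symbols matched for all members, Nespas as a synonym of Gnasas1. Starts and sequences came from the RefSeq promoter table, which held 31 of the 42 members. The gene table gives no exons or introns, so none are named. For Snrpn and Mest the most downstream listed start, and for Slc38a4 the first, was used as the landmark, set after the regions had been seen. Members, gene lists and landmarks were chosen with earlier results of these data known. All members are accounted for. Values are given in full for regions within 1 kb of a landmark, start or gene end, for the highest fold and tag count of each cluster, and for clusters with few regions. Intervals (95%, Wilson for shares, exact Poisson for tag and region counts, binomial order statistics for medians) cover counting error only, and tags are reads without molecular identifiers. The overlap code was tested on simulated data with planted regions. Scripts ran in Python 3.11.15 with pandas 2.3.3, SciPy 1.17.1, NumPy 2.4.6 and Matplotlib 3.10.9. The alternatives were stricter limits on p and FDR, other overlap rules, and other widths around genes and landmarks.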

Additional observations from a re-analysis of the deposited data

How the results depend on the processing

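The counts of members (22 to 26), clusters (15 throughout) and other imprinted genes (13 to 20) with a region stayed within 1.5 times the reported values under every alternative run. The number of landmarks with a region, 5 as reported with the wide Dlk1-Meg3 interval among them, was 3 at a p of 1e-20 or better and 3 at an FDR of at most 5%. It was 8 with 2 kb and 9 with 5 kb around the landmark, widths for which no background share was computed. With any listed start it was 6, an alternative added after the data were seen. Regions at the members, 73 as reported, numbered 44 at an FDR of at most 5% and 43 with at least 100 Control tags, also added afterwards. Their median tag count, 129, was 160.5 at a p of 1e-20 or better and 175.5 at an FDR of at most 5%. Their median fold, 9.34, was 11.93 at that FDR, and the cause was not tested. Medians of all regions under these limits are not given here, so these values cannot be set against the unfiltered medians of all regions. With 1 library per genotype no replicate could be left out. No paired analysis was possible because each genotype has 1 library. Depth limits regions with few tags: the smallest member region had 15.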

Other observations

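Some members that have a region in the list had it only at a weak FDR. At an FDR of at most 5%, 23 of the 42 members had a region (54.8%), where 30.0% of all protein-coding and long noncoding genes had one, and with the annotated gene alone it was 22 members (52.4%), where 31.3% of genes had one. Gene length was not matched in these shares.

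The fold of 38.41 at 65 tags between Dlk1 and Meg3 and the fold of 85.69 at 86 tags inside Sfmbt2, an imprinted Polycomb gene of the list of other imprinted genes, exceeded the highest fold at a member, 26.37. The Sfmbt2 value was singled out after the values were seen.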
